A study of Rattus norvegicus with 24 samples.

Results

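Acid-base transporters and carbonic anhydrases of the kidney were followed through 8 genes: Car2, Car4, Slc4a1, Slc4a4, Slc26a4, Atp6v1b1, Atp6v0a4 and Rhcg. They were found on the array by their symbol in the platform annotation, which gave 9 probe sets for 6 of the 8 genes, out of 15866 probe sets that are not array controls. Car2, Slc4a1 and Slc4a4 had 2 probe sets each, and Car4, Slc26a4 and Rhcg had 1. Atp6v1b1 and Atp6v0a4, which encode the intercalated cell forms of a catalytic-head and a membrane subunit of the vacuolar proton pump, were matched by no probe set and are not analysed here. All 9 probe sets passed the filter on low signals, so that no member was left out for a weak signal.

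The kidneys came from male stroke-prone spontaneously hypertensive rats (SHR-SP), an inbred strain with genetic hypertension. Feeding began at 11 weeks of age, with a high salt and fat diet (HSF; chow of 24.5% fat with 1% NaCl to drink) or with a normal diet of powdered chow and water. Kidneys were taken after 2 or 8 weeks, with 6 animals in each of the 4 groups (HSF at 2 weeks, normal diet at 2 weeks, HSF at 8 weeks, normal diet at 8 weeks) and 1 Affymetrix array of whole kidney RNA per animal. Every animal carried the hypertensive background, and no group had salt or fat alone, so each diet comparison concerns both together within this strain.

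The kidney reclaims filtered bicarbonate in the proximal tubule and secretes the remaining acid load in the collecting duct. In the proximal tubule, carbonic anhydrases interconvert carbon dioxide and bicarbonate, Car4 as an enzyme anchored on the membrane and Car2 in the cytosol, and Slc4a4 (NBCe1) carries bicarbonate with sodium across the basolateral membrane to the blood. In the collecting duct, type A intercalated cells pump protons into the urine with the vacuolar proton pump and return bicarbonate through Slc4a1 (AE1, band 3). Type B cells secrete bicarbonate through Slc26a4 (pendrin) in exchange for chloride, and Rhcg conducts ammonia.

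Signals are the deposited values on a linear scale. Differences are those of log2(signal + 7.21) ± SE, HSF minus normal diet unless stated, and calls are limma adjusted p-values under 0.05 over all 10200 probe sets tested. This scale understates the change of weak signals. Precision is limited by the number of arrays, with 6 animals in each group. The limma p-values rest on the spread between animals within groups, pooled over the 4 groups and moderated by signal level. Whole kidney was measured, so fewer cells of a type and less RNA per cell cannot be told apart. Array medians lay between 68.7 and 78.8. Kidney markers were present: all 10 proximal tubule genes, all 8 thick ascending limb genes and all 11 principal cell genes found on the array passed the filter. Arrays 1 and 2 of the normal diet at 8 weeks had a higher floor (2.4 and 3.0 at the 1st percentile of signal, where the remaining arrays had 0.7 to 1.2). The diet differences of the members and of the named acid-base genes were also fitted without them. Calls lost that way are given by value or within a range of adjusted p. Results of the cell marker genes and the change of the Slc9a3 diet effect are not given without them. GAPDH probe sets, whose 3' to 5' ratio rises as RNA degrades, gave ratios of 1.13 to 1.40 in HSF rats and 0.969 to 1.18 on the normal diet at 2 weeks, and 1.07 to 1.33 in HSF rats and 1.09 to 1.26 on the normal diet at 8 weeks. The part of RNA integrity in the results was not tested.

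Slc4a4 was lower on the HSF diet by both of its probe sets at 2 weeks, and by 1 of them at 8 weeks. Slc4a1 was higher at 2 weeks by 1 of its 2 probe sets, and Slc26a4 was lower at 8 weeks. Car2, Car4 and Rhcg were called in no diet comparison. At 2 weeks 3 of the 9 probe sets were called (33.3%), 1 higher and 2 lower, where 8.75% of all probe sets tested were called. At 8 weeks 2 of the 9 were called (22.2%), both lower, where 9.15% of all were called. The 3 called at 2 weeks belong to 2 genes. The members were chosen with earlier results of these data known, so these shares are given as a description. The median difference of the 9 was -0.07 at 2 weeks and -0.10 at 8 weeks, beside 0.017 and -0.001 over all probe sets tested.

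Slc4a4 and Slc26a4 were both lower after 8 weeks, and the 250 bases before their annotated starts are printed here from RefSeq (rat assembly GRCr8, minus strand), 5′ to 3′, as the stretch just before each start. The windows are chr14:19468283-19468532 for Slc4a4 and chr6:53873217-53873466 for Slc26a4. Slc4a4 has alternative starts, and for both genes the start given lies inside the span that RefSeq gives the gene, so that each window lies within that span.
Slc4a4: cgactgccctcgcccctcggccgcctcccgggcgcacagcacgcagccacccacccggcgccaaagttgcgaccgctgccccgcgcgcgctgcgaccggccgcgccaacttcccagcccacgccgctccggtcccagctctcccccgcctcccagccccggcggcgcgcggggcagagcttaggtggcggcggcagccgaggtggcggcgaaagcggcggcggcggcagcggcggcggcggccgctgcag
Slc26a4: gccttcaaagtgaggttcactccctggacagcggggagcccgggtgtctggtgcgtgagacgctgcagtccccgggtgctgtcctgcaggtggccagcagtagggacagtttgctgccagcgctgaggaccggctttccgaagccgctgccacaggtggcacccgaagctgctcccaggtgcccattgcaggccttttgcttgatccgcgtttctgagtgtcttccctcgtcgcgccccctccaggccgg
G and C made up 80.8% of the Slc4a4 window and 65.6% of the Slc26a4 window. Short promoter motifs were searched on both strands, and none of them occurred in either window, so no base is capitalised. Of the 33469 windows of this length in the table, 12.9% held the TATA box TATAAA and 34.0% the CCAAT box, spelled as its name. The Sp1 core GGGCGG was found in 30.5%, the steroid receptor core TGTTCT in 17.5% and the Hnf4a-type motif CAAAGTCCA in 0.34%.

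For Slc4a4, probe set 1372479_at gave the same picture at both times. At 2 weeks its signals were 827.0 to 953.1 with a median of 899.7 on the HSF diet, against 1158.9 to 1413.2 with a median of 1196.2 on the normal diet. At 8 weeks they were 782.3 to 998.2 with a median of 908.0 on the HSF diet, against 1096.8 to 1356.5 with a median of 1284.6 on the normal diet. Every array of the HSF diet lay below every normal-diet array of its time. The difference was -0.47 ± 0.07 at 2 weeks (limma adjusted p = 8.17e-05) and -0.47 ± 0.07 at 8 weeks (limma adjusted p = 5.67e-05). Its diet difference at 8 weeks minus that at 2 weeks was 0.0049 ± 0.098, with a 95% interval of -0.20 to 0.21.

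Probe set 1369756_a_at of Slc4a4 was lower at 2 weeks, by a larger estimate, and was not called at 8 weeks. Its signals at 2 weeks were 265.6 to 528.6 with a median of 346.4 on the HSF diet, against 611.3 to 805.3 with a median of 717.2 on the normal diet. The groups did not overlap, and the difference was -0.97 ± 0.13 (limma adjusted p = 2.2e-05). At 8 weeks the signals were 406.1 to 625.3 with a median of 567.1 on the HSF diet, against 562.8 to 792.0 with a median of 625.4 on the normal diet. The groups overlapped although 6 of 6 HSF arrays lay below the normal-diet median, and the difference was -0.30 ± 0.13 (limma adjusted p = 0.147). The change of the diet difference between the times was 0.67 ± 0.18 (limma adjusted p = 0.129), which was called (0.77, limma adjusted p = 0.0292) without HSF array 5 at 2 weeks.

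**Figure D1:**
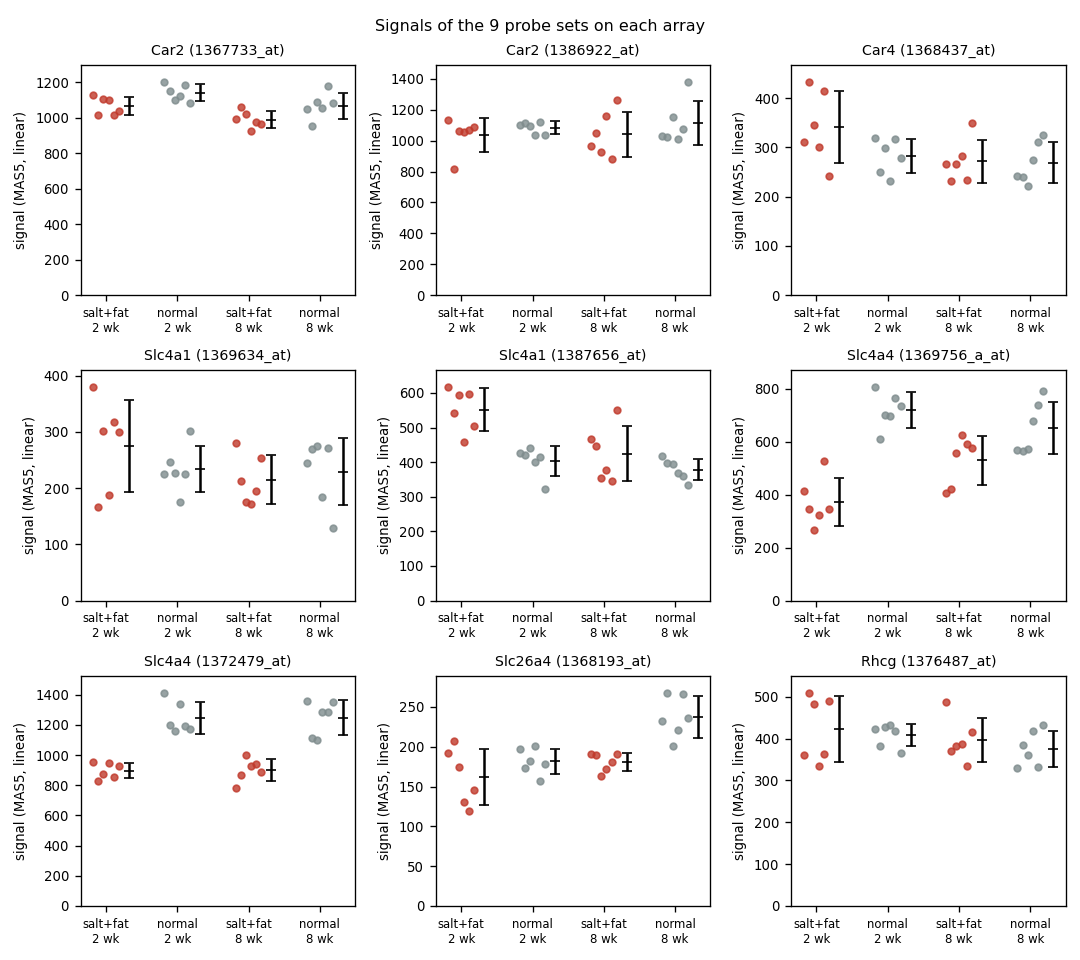
Signal (linear, vertical axes from 0) of each of the 9 probe sets on every array, by group, HSF diet in red and normal diet in grey, with the mean ± SD of 6 arrays in black beside the points. Both Slc4a4 probe sets at 2 weeks, Slc4a4 1372479_at and Slc26a4 at 8 weeks, and Slc4a1 1387656_at at 2 weeks show diets that do not overlap.

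Whether the 2 probe sets of a gene differed in their response was tested, after the values had been seen, on the log2 difference between them within each array. For Slc4a4 (1369756_a_at minus 1372479_at) it was -1.29 ± 0.35 in HSF rats and -0.79 ± 0.14 on the normal diet at 2 weeks (SD, n = 6 each, exact two-sided permutation p = 0.0130), lower than the normal-diet median in 5 of 6 arrays. Adjusted over the 6 such comparisons, which covered Slc4a4, Slc4a1 and Car2 at both times, p was 0.0779. At 8 weeks the same quantity was -0.77 ± 0.19 in HSF rats and -0.94 ± 0.17 on the normal diet (SD, n = 6 each, exact permutation p = 0.139, adjusted p = 0.403). None of the 6 comparisons passed 0.05 after adjustment.

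**Figure D2:**
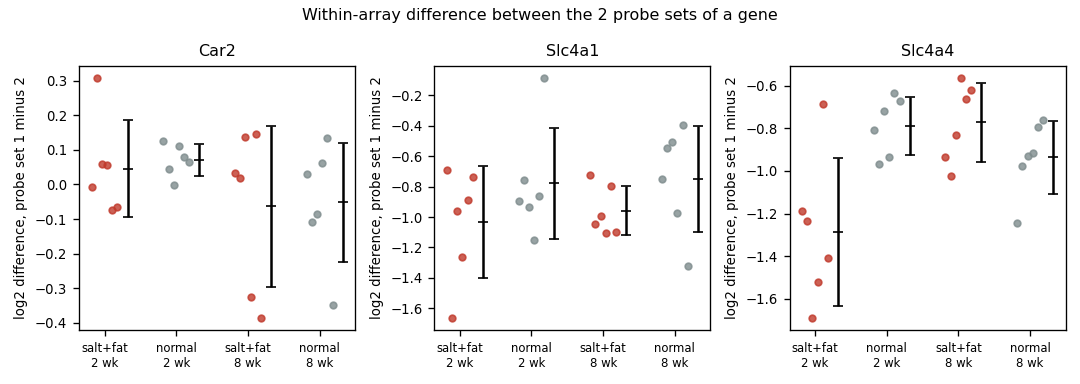
Log2 difference between the 2 probe sets of Car2 (1367733_at minus 1386922_at), Slc4a1 (1369634_at minus 1387656_at) and Slc4a4 (1369756_a_at minus 1372479_at) on each array (vertical axes, log2 units, not from 0), by group, with the mean ± SD of 6 arrays. Of the 6 HSF arrays at 2 weeks, 5 lie below the normal-diet median for Slc4a4.

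Markers of the proximal tubule, where Slc4a4 acts, were lower in part. Of 10 proximal tubule genes tested, 0 were higher and 7 lower at 2 weeks, with a median of -0.33 and differences of -0.74 to -0.18. At 8 weeks 0 were higher and 5 lower, with a median of -0.26 and differences of -0.71 to 0.11. Their summed signal was 16617.8 to 19591.9 in HSF rats and 21855.6 to 23968.6 on the normal diet at 2 weeks. At 8 weeks it was 16457.8 to 20062.2 in HSF rats and 19818.1 to 25421.2 on the normal diet, and no marker had a signal of 0 on any array. At 2 weeks the called markers of smallest p were the transcription factor Hnf4a (-0.74 ± 0.13), the sulfate transporter Slc13a1 (-0.55 ± 0.11), the organic anion transporter Slc22a8 (-0.40 ± 0.08) and the phosphate transporter Slc34a1 (-0.38 ± 0.08). At 8 weeks they were the glucose transporter Slc5a2 (-0.71 ± 0.13), Slc22a6 (-0.41 ± 0.08), megalin Lrp2 (-0.33 ± 0.07) and Slc22a8 (-0.38 ± 0.08). Slc13a1 was not called at 8 weeks (0.11 ± 0.11, limma adjusted p = 0.588). The other probe set of Hnf4a was lower at 2 weeks (-0.57 ± 0.12, limma adjusted p = 0.00282) and at 8 weeks (-0.38 ± 0.12, limma adjusted p = 0.0438), when the one counted was not called (-0.22 ± 0.13, limma adjusted p = 0.312). The other probe set of Slc34a1 was not called at 2 weeks (-0.26 ± 0.08, limma adjusted p = 0.0578) and was lower at 8 weeks (-0.44 ± 0.08, limma adjusted p = 0.00122), when the one counted was not called (-0.20 ± 0.08, limma adjusted p = 0.133). The part of these markers in the Slc4a4 result was not tested.

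The carbonic anhydrases Car2 and Car4 were called at neither time. Car2 by probe set 1367733_at had signals of 1014.3 to 1128.3 with a median of 1069.7 on the HSF diet, against 1083.0 to 1202.2 with a median of 1136.4 on the normal diet, at 2 weeks. At 8 weeks its signals were 925.1 to 1062.6 with a median of 983.7 on the HSF diet, against 953.0 to 1179.1 with a median of 1068.3 on the normal diet. All 6 HSF arrays lay below the normal-diet median at each time, yet the groups overlapped. The differences were -0.10 ± 0.05 at 2 weeks (limma adjusted p = 0.297, 95% interval -0.21 to 0.015) and -0.11 ± 0.05 at 8 weeks (limma adjusted p = 0.225, 95% interval -0.22 to 0.0032). Its other probe set, 1386922_at, had 817.7 to 1135.2 in HSF rats and 1035.4 to 1123.0 on the normal diet at 2 weeks, and 881.8 to 1264.0 in HSF rats and 1008.2 to 1381.1 on the normal diet at 8 weeks. It gave differences of -0.07 ± 0.09 and -0.10 ± 0.09, neither of them called.

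Car4 had signals of 241.5 to 433.3 with a median of 328.2 on the HSF diet, against 232.4 to 318.3 with a median of 288.9 on the normal diet, at 2 weeks. Above the normal-diet median lay 5 of 6 HSF arrays, and the difference was 0.25 ± 0.12 (limma adjusted p = 0.232, 95% interval -0.0070 to 0.50). At 8 weeks the signals were 232.0 to 349.3 in HSF rats and 222.0 to 325.1 on the normal diet, with a difference of 0.012 ± 0.124 and a 95% interval of -0.24 to 0.27. Car4 is also carried by endothelium. Of 8 endothelial genes tested 2 were higher at 2 weeks, Esam (0.48 ± 0.12) and Emcn (0.22 ± 0.07), with summed signals of 1652.1 to 2057.9 in HSF rats and 1548.8 to 1723.2 on the normal diet. The median of the 8 was only 0.017 at 2 weeks, with differences of -0.34 to 0.48. At 8 weeks the median was 0.14, with differences of -0.40 to 0.33. At 8 weeks 1 endothelial gene, the growth factor receptor gene Kdr, was lower (-0.40 ± 0.11), with summed signals of 1590.4 to 1885.5 in HSF rats and 1508.8 to 1712.6 on the normal diet. Their part in the Car4 values was not tested.

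Slc4a1, the chloride bicarbonate exchanger of type A intercalated cells and of red blood cells, was higher at 2 weeks by probe set 1387656_at. Its signals at 2 weeks were 459.4 to 616.4 with a median of 567.5 on the HSF diet, against 321.0 to 440.8 with a median of 417.9 on the normal diet. The groups did not overlap, and the difference was 0.44 ± 0.10 (limma adjusted p = 0.0052). At 8 weeks the signals were 344.6 to 550.9 with a median of 412.4 on the HSF diet, against 333.2 to 417.7 with a median of 381.3 on the normal diet. Only 3 of 6 HSF arrays then lay above the normal-diet median, and the difference was 0.14 ± 0.10 (limma adjusted p = 0.408). The diet difference at 8 weeks minus that at 2 weeks was -0.30 ± 0.14 (limma adjusted p = 0.413), so that a change of the response with time was not called.

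The other Slc4a1 probe set, 1369634_at, varied more between animals and was called at neither time. Its signals at 2 weeks were 166.0 to 379.6 with a median of 300.4 on the HSF diet, against 176.1 to 302.4 with a median of 226.9 on the normal diet. At 8 weeks they were 172.1 to 280.2 in HSF rats and 128.7 to 274.6 on the normal diet. The differences were 0.19 ± 0.19 at 2 weeks (95% interval -0.19 to 0.57) and -0.06 ± 0.19 at 8 weeks (95% interval -0.44 to 0.31). The interval at 2 weeks holds the value of the other probe set. Of 4 red blood cell genes tested (Alas2, Gypc, Hbb and Hba-a3) 0 were called at 2 weeks, with differences of -0.23 to 0.16, and 0 at 8 weeks, with differences of 0.098 to 0.37, at an adjusted p under 0.05 by limma. With the genes below the filter the red blood cell sum was 1932.6 to 2616.6 in HSF rats and 2062.7 to 3107.6 on the normal diet at 2 weeks, and 1983.5 to 3909.0 in HSF rats and 1760.6 to 2760.1 on the normal diet at 8 weeks, with no gene at 0. The part of these markers in the Slc4a1 values was not tested.

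Slc26a4 was lower on the HSF diet after 8 weeks. Its signals at 8 weeks were 163.3 to 190.6 with a median of 185.6 on the HSF diet, against 200.8 to 268.0 with a median of 234.8 on the normal diet. The groups did not overlap, and the difference was -0.37 ± 0.11 (limma adjusted p = 0.0247). The call was lost without arrays 1 and 2 of the normal diet at 8 weeks (-0.33, limma adjusted p = 0.105), and without any 1 of HSF array 3 and normal-diet arrays 2 and 5 at 8 weeks (-0.34 each, limma adjusted p = 0.0547 to 0.0606). Over the other settings its adjusted p was 0.0137 to 0.105, and over single arrays left out 0.0142 to 0.0606. At 2 weeks the signals were 119.2 to 207.1 with a median of 160.1 on the HSF diet, against 157.5 to 201.4 with a median of 180.1 on the normal diet. These groups overlapped, and the difference was -0.19 ± 0.11 (limma adjusted p = 0.299). Mean signals were 161.5 in HSF rats and 181.7 on the normal diet at 2 weeks, and 181.2 in HSF rats and 237.5 on the normal diet at 8 weeks. The mean was highest on the normal diet at 8 weeks, whose range overlapped those of both groups at 2 weeks. The change of the diet effect between the times was not called (-0.19 ± 0.15, limma adjusted p = 0.679).

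Rhcg did not separate the groups. Its signals at 2 weeks were 335.1 to 510.0 with a median of 422.1 on the HSF diet, against 366.7 to 431.5 with a median of 421.7 on the normal diet. At 8 weeks they were 334.2 to 488.2 with a median of 384.3 on the HSF diet, against 330.0 to 431.6 with a median of 372.4 on the normal diet. The differences were 0.03 ± 0.10 (95% interval -0.18 to 0.24) and 0.07 ± 0.10 (95% interval -0.14 to 0.28). These intervals leave room for changes of up to 0.28 on the log2 scale, so that a small diet effect was not detectable with 6 animals a group.

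**Figure D3:**
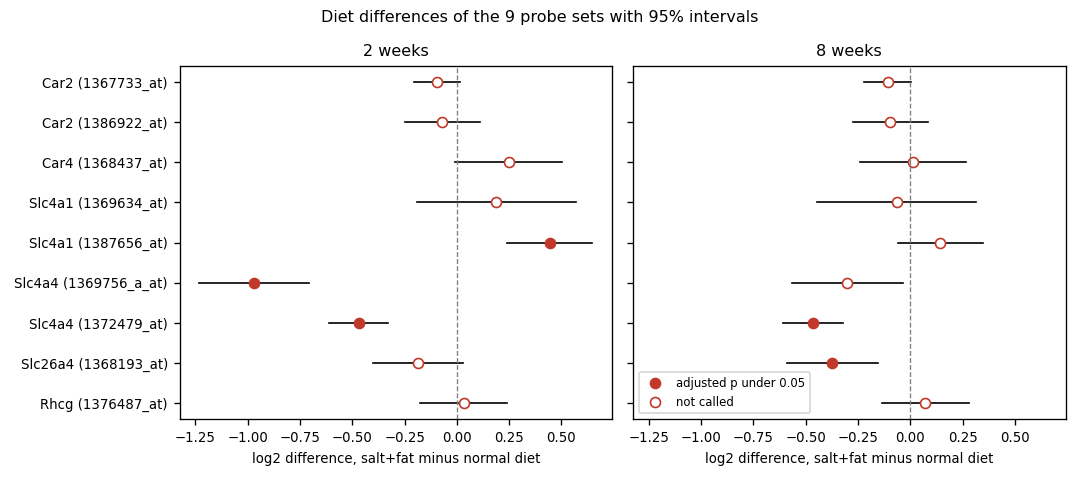
Log2 difference, HSF minus normal diet (horizontal axes), of the 9 probe sets at 2 weeks (left) and 8 weeks (right), with 95% intervals from limma as lines and filled points for an adjusted p under 0.05. At 2 weeks the filled points are those of Slc4a4 1369756_a_at (-0.97), Slc4a4 1372479_at (-0.47) and Slc4a1 1387656_at (0.44), and at 8 weeks those of Slc4a4 1372479_at (-0.47) and Slc26a4 (-0.37).

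Between 2 and 8 weeks on the HSF diet, 2 of the 9 probe sets were called, 1 higher and 1 lower, where 3.53% of all probe sets tested were called. Slc4a4 1369756_a_at was higher at 8 than at 2 weeks (0.52 ± 0.13, limma adjusted p = 0.0194), 6 of 6 arrays at 8 weeks lying above the median at 2 weeks. The call was lost without any 1 of array 3 at 2 weeks and arrays 4 and 5 at 8 weeks (0.43 to 0.48, limma adjusted p = 0.0550 to 0.0676). Slc4a1 1387656_at was lower at 8 than at 2 weeks (-0.39 ± 0.10, limma adjusted p = 0.0250), 6 of 6 arrays at 8 weeks lying below the median at 2 weeks. That call was lost without any 1 of arrays 1, 3 and 5 at 2 weeks and arrays 3, 4 and 5 at 8 weeks (-0.36 to -0.33, limma adjusted p = 0.0550 to 0.0814). With the fit restricted to these 2 groups neither was called (limma adjusted p = 0.0709 for Slc4a4 and 0.0820 for Slc4a1). Car4 had -0.31 ± 0.12 (limma adjusted p = 0.181), and was called (-0.40, limma adjusted p = 0.0494) without array 6 at 2 weeks.

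On the normal diet 0 of the 9 probe sets were called between 8 and 2 weeks by limma, where 0.0392% of all probe sets tested were called, and 1 of the 9 had an unadjusted p under 0.05, as had 869 of all 10200. That one was Slc26a4, with 0.37 ± 0.11 (limma adjusted p = 0.238), all 6 arrays at 8 weeks lying above the median at 2 weeks. The other 8 had differences of -0.15 to 0.028. For the change of the diet effect with time, 0 of 9 were called by limma, where 0.382% of all were called. Unadjusted p-values under 0.05 were reached by 2 of the 9, Slc4a4 1369756_a_at and Slc4a1 1387656_at, and by 1189 of all 10200 probe sets tested.

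Genes of most similar pattern were sought for each member, by its probe set of highest mean, as the 3 named genes of highest Pearson correlation over the 24 arrays. The correlations include the differences between the groups and are given as a description. For Slc4a4 they were Kcnj16, a subunit of an inwardly rectifying potassium channel (r = 0.887, Spearman rho = 0.856), Spink1l (r = 0.887, rho = 0.863) and Spp2 (r = 0.886, rho = 0.825). For Slc4a1 they were the carnitine palmitoyltransferase Cpt1b (r = 0.821, rho = 0.830), the class I histocompatibility gene RT1-CE16 (r = 0.809, rho = 0.687) and the phosphatase inhibitor Ppp1r1a (r = 0.795, rho = 0.748). For Slc26a4 they were Gemin4 (r = 0.736, rho = 0.627), U2surp (r = 0.705, rho = 0.540) and Metrn (r = 0.702, rho = 0.468). Car2 was followed most closely by Gjb2, which encodes connexin 26 (r = 0.864, rho = 0.848), Amacr (r = 0.824, rho = 0.847) and ornithine aminotransferase Oat (r = 0.802, rho = 0.763). Car4 was followed by Cab39 (r = 0.787, rho = 0.714), the vitamin transporter Slc5a6 (r = 0.770, rho = 0.728) and Pigq (r = 0.706, rho = 0.529), and Rhcg by Cdc23 (r = 0.728, rho = 0.737), Tspan4 (r = 0.679, rho = 0.642) and Pan3 (r = 0.617, rho = 0.494).

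The other genes of acid-base handling were described by lists, each gene by its probe set of highest mean. Among carbonic anhydrases other than the members, 1 of 6 tested was higher and 1 lower at 2 weeks, with a median of -0.23, and 0 were higher and 1 lower at 8 weeks, with a median of -0.08. Car11, a carbonic anhydrase-related protein without the enzyme's activity, was higher at 2 weeks (0.90 ± 0.22, limma adjusted p = 0.0109), and had 0.56 with a pseudocount of 36.05. Its mean signals at 2 weeks were 64.5 in HSF rats and 32.9 on the normal diet. The latter lay below the filter percentile of every normal-diet array (46.5 or more), so the Car11 difference rests on weak signals. Car11 passed the filter in only 11 of the 12 other settings. Car3 was lower at 2 weeks (-3.44 ± 0.65, limma adjusted p = 0.00117), and its other probe set gave -3.17 ± 0.61. Its mean signal at 2 weeks was 74.45 (SD 37.43) in HSF rats and 1105.0 (SD 864.6) on the normal diet, where animals varied widely. At 8 weeks Car3 was not called (-0.18 ± 0.65, limma adjusted p = 0.904). Car3 is abundant in fat and muscle. All 5 adipocyte genes tested were lower at 2 weeks, with a median of -1.34 and summed signals of 266.7 to 453.3 in HSF rats and 372.6 to 2595.5 on the normal diet, and their part in the Car3 value was not tested. Car14, a membrane-bound form, was lower at 8 weeks (-0.52 ± 0.16, limma adjusted p = 0.0454). Without arrays 1 and 2 of the normal diet at 8 weeks it had -0.25 (limma adjusted p = 0.376), over the other settings its adjusted p was 0.0333 to 0.376, over single arrays left out 0.0245 to 0.133, and its other probe set was not called at 8 weeks (-0.25 ± 0.19, limma adjusted p = 0.453). At 2 weeks the first was not called (-0.23 ± 0.16, limma adjusted p = 0.423) and the other was lower (-0.65 ± 0.19, limma adjusted p = 0.0278).

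In the family of Slc4a1 and Slc4a4, 1 of 3 other genes tested was higher at both times and 0 were lower, with medians of 0.25 at 2 weeks and -0.04 at 8 weeks. Slc4a7, the electroneutral sodium bicarbonate cotransporter NBCn1, had signals of 81.6 to 180.1 in HSF rats and 29.9 to 60.8 on the normal diet at 2 weeks, and of 55.0 to 111.8 in HSF rats and 24.7 to 67.2 on the normal diet at 8 weeks. Its differences were 1.45 ± 0.20 (limma adjusted p = 3.63e-05) and 1.00 ± 0.20 (limma adjusted p = 0.00178). With a pseudocount of 36.05 the differences were 1.06 and 0.69, both still called by limma. Normal-diet medians of Slc4a7 were 38.2 at 2 weeks and 38.75 at 8 weeks, below the filter percentile of every normal-diet array (46.5 or more). Its HSF signals lay above that percentile on every HSF array (53.0 or less), which was enough to pass the filter. Slc4a7 was thus higher at both times, where Slc4a4 by 1372479_at was lower, but the size of its difference rests on weak normal-diet signals. The remaining anion exchangers of the Slc26a4 family had 0 of 2 tested genes called by limma at either time (-0.17 to -0.03 at 2 weeks and -0.09 to 0.27 at 8 weeks). The proton potassium pump list had 1 tested gene, Atp12a, which was not called (-0.07 and 0.11).

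Of 17 other subunits of the vacuolar proton pump, 0 were higher and 1 lower at 2 weeks, with a median of 0.02, and 0 were higher and 1 lower at 8 weeks, with a median of -0.08. At 2 weeks the lower one was Atp6v1b2 (-0.32 ± 0.10, limma adjusted p = 0.0416), the B subunit found in most cells, whose other probe set gave -0.47 ± 0.09 (limma adjusted p = 0.00234). At 8 weeks it was Atp6v1c1 (-0.31 ± 0.10, limma adjusted p = 0.0463). Over the other settings the adjusted p was 0.0357 to 0.0753 for Atp6v1b2 and 0.0363 to 0.122 for Atp6v1c1, and over single arrays left out 0.0153 to 0.121 and 0.0233 to 0.112, so that both calls lie at the threshold. The subunits Atp6v1g3 and Atp6v1c2, which mark intercalated cells, had -0.05 and 0.25 at 2 weeks and -0.05 and 0.11 at 8 weeks. With Insrr (-0.56 ± 0.27 at 2 weeks and 0.15 ± 0.27 at 8 weeks) they are the 3 of 14 listed intercalated cell markers tested. Of these 3, 0 were called at either time by limma. The intercalated cell genes on the array, Aqp6 and Kit below the filter included, summed to 447.1 to 554.3 in HSF rats and 411.1 to 559.5 on the normal diet at 2 weeks, and to 368.4 to 573.1 in HSF rats and 391.5 to 511.7 on the normal diet at 8 weeks.

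Principal cells lie beside intercalated cells in the collecting duct. Of 11 principal cell genes tested, 5 were higher and 1 lower at 2 weeks, and 4 were higher and 0 lower at 8 weeks. Differences were -0.26 to 1.97 at 2 weeks, with a median of 0.37, and -0.27 to 1.15 at 8 weeks, with a median of 0.31. The lower one at 2 weeks was the sodium channel subunit Scnn1b (-0.26 ± 0.08, limma adjusted p = 0.0300). Their summed signals were 3864.5 to 4438.9 in HSF rats and 2588.2 to 3202.0 on the normal diet at 2 weeks. At 8 weeks they were 3738.6 to 4564.3 in HSF rats and 2803.3 to 3525.5 on the normal diet. Aqp4 (1.97 ± 0.16 at 2 weeks and 1.15 ± 0.16 at 8 weeks) and Aqp2 (1.16 ± 0.14 and 0.73 ± 0.14), both water channels, were higher at both times by the probe sets counted. So were Aqp3 (0.73 ± 0.08 and 0.33 ± 0.08) and Fxyd4 (1.025 ± 0.135 and 0.675 ± 0.135). The other probe set of Aqp4 gave 0.71 ± 0.21 at 2 weeks (limma adjusted p = 0.0301) and 0.55 ± 0.21 at 8 weeks (limma adjusted p = 0.0932), the second not called. Mean signals of the Aqp4 probe set counted were 127.9 in HSF rats and 27.47 on the normal diet at 2 weeks. At 8 weeks they were 90.17 and 37.22. Both normal-diet means lay below the filter percentile of every normal-diet array (46.5 or more). That probe set thus passed the filter mostly through HSF arrays, and the size of its differences rests on weak normal-diet signals. Of 8 thick ascending limb genes tested 4 were higher at 2 weeks and 2 at 8 weeks, with 0 lower at either time. Of 6 macrophage genes tested 0 were called at 2 weeks and 3 were higher at 8 weeks by limma, with summed signals at 8 weeks of 2767.5 to 3743.3 in HSF rats and 2237.4 to 2825.0 on the normal diet. The 1 urothelial gene tested was not called (-0.26 and -0.14). The part of all these markers in the Slc4a1, Slc26a4 and Rhcg values was not tested.

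For sodium proton exchange, 1 of 5 genes tested was higher and 0 lower at 2 weeks, and 0 were higher and 1 lower at 8 weeks. Nherf2, a scaffold of the exchanger Slc9a3, had 0.42 ± 0.14 at 2 weeks (limma adjusted p = 0.0496), with adjusted p of 0.0467 to 0.0981 over the other settings and 0.0187 to 0.145 over single arrays left out, and its other probe set was not called (0.09 ± 0.13). Slc9a3 (NHE3), the apical proton exchanger of the proximal tubule, had signals of 227.7 to 284.6 in HSF rats and 322.7 to 406.0 on the normal diet at 8 weeks, a difference of -0.50 ± 0.08 (limma adjusted p = 0.000248). At 2 weeks its signals were 366.6 to 446.1 in HSF rats and 284.7 to 431.3 on the normal diet, a difference of 0.18 ± 0.08 (limma adjusted p = 0.192).

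The list for ammonia production and transport was broad, and also held carriers and enzymes that do not themselves make or carry ammonia. Of its 9 genes tested, 0 were higher and 4 lower at 2 weeks, with a median of -0.26. At 8 weeks 0 were higher and 4 lower, with a median of -0.17. The amino acid transporter subunit Slc7a7 (-0.61 ± 0.15 at 2 weeks and -0.58 ± 0.15 at 8 weeks) and pyruvate carboxylase Pc (-0.38 ± 0.11 and -0.52 ± 0.11) were lower at both times. Glutamate dehydrogenase Glud1 (-0.28 ± 0.07) and glutamine synthetase Glul, which consumes ammonia (-0.31 ± 0.10), were lower at 2 weeks. The other probe sets of Glul gave -0.30 and -0.50, both called, and that of Glud1 gave -0.04 ± 0.07. After quantile normalization neither Glud1 nor Glul was called (-0.14 for Glud1, limma adjusted p = 0.167, and -0.10 for Glul, limma adjusted p = 0.521). With each of 24 arrays left out in turn, the call at 2 weeks was lost 9 times for Glul and 6 times for Pc. The limma adjusted p reached 0.121 for Glul and 0.0932 for Pc, each without normal-diet array 1 at 2 weeks. Over 12 other settings the call at 2 weeks was lost in 5 for Glul and in 1 for Pc (array weights, limma adjusted p = 0.0510). At 8 weeks the limma adjusted p of Slc7a7 was 0.0579 without HSF array 1. The citrate transporter Slc13a2 (-0.41 ± 0.09) and the mitochondrial dicarboxylate carrier Slc25a10 (-0.33 ± 0.08) were lower at 8 weeks. Pck1, the gluconeogenic enzyme that uses the carbon of glutamine, had -0.26 and -0.11 and was not called. The glutamine transporter Slc38a3 had -0.11 at 2 weeks and -0.0003 at 8 weeks and was not called either. Of 4 acid-base sensors and regulators tested, 0 were called at either time by limma (-0.56 to 0.20 at 2 weeks and -0.25 to 0.15 at 8 weeks).

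**Figure D4:**
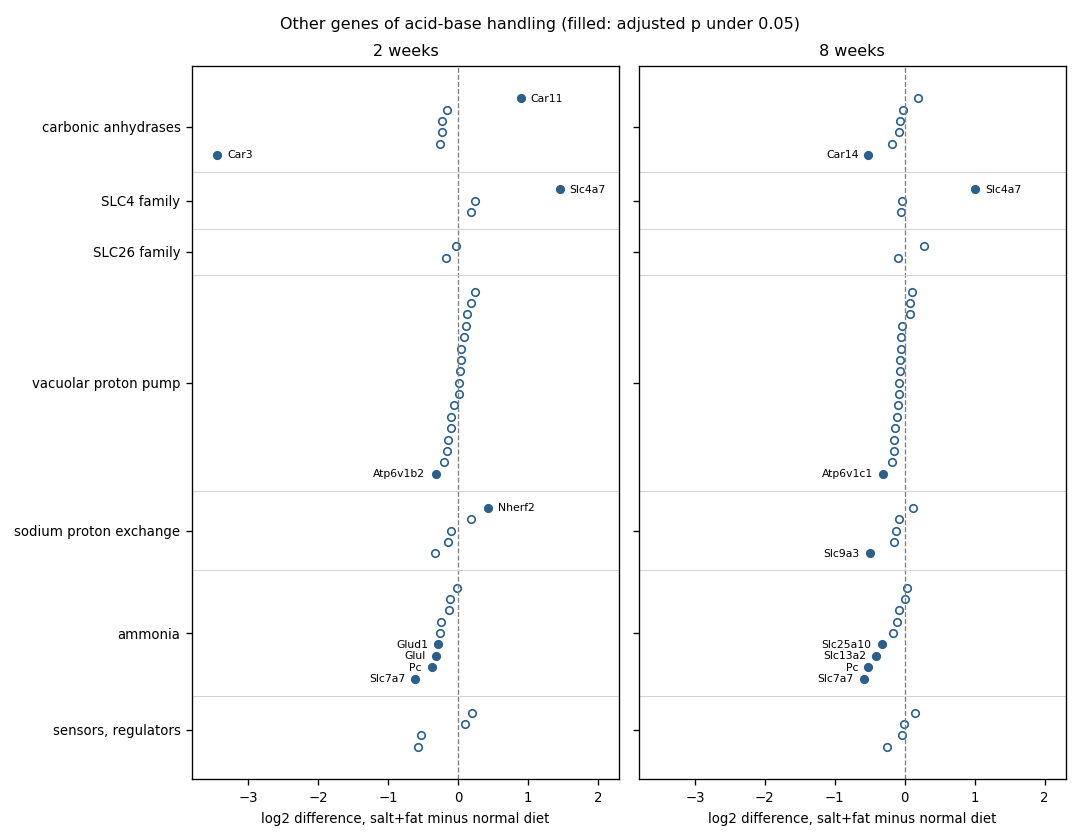
Log2 difference, HSF minus normal diet (horizontal axes), of each tested gene of 7 lists of acid-base handling (vertical axis, 1 row per gene, ordered by value within each list and panel) at 2 weeks (left) and 8 weeks (right), filled and named where the adjusted p was under 0.05. Slc4a7 stands at 1.45 and 1.00, Car3 at -3.44 at 2 weeks, and the 17 vacuolar proton pump subunits lie between -0.32 and 0.25 at 2 weeks and between -0.31 and 0.11 at 8 weeks.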

How the data were processed

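Whole kidneys of 24 rats, 1 Affymetrix array each, were measured. The authors deposited an intensity for each probe set, computed with MAS5 per the submitters' processing notes. The MAS5 version and scaling target are not given in the sources used here. The values were linear, with 27 at 0 and 0 missing, and after leaving out the lowest and highest 2% every array averaged 149.954 to 150.455. No pair of arrays was a duplicate (at most 0.687% identical values within a group). Symbols came from the platform annotation through Entrez identifiers. Of 15923 probe sets, 57 controls were left out, and 12783 had 1 symbol, 312 several and 2771 none.

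Signals were raised by 7.21 (0.1 times the median of the array medians) and taken to log2. Probe sets above the array's 40th percentile in at least 6 of 24 arrays were tested (10200). Using limma 3.58.1 under R 4.3.3, group means were fitted to all 24 arrays with a moderated, mean-dependent variance (eBayes with trend). Tests were two-sided, with Benjamini-Hochberg adjustment over all probe sets tested. There were 5 comparisons: diet at 2 and at 8 weeks, their difference, and time on each diet. The fit was tested on simulated data of 10200 probe sets with independent noise, 100 of them shifted by each size. Of shifts of 0.5 (log2), 64% were called for diet at 2 weeks and 69% for diet at 8 weeks, and of shifts of 1, 97% for each. False calls were 4.7% of those made at 2 weeks and 5.7% at 8 weeks. Fewer probe sets were shifted than were called in the real data, so these rates need not hold for it.

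The members and lists were chosen with earlier results of these data known. Named were all member probe sets, up to 4 called genes of smallest p per list and diet comparison, and the 3 genes most correlated with each member. Genes without a call, such as Pck1, Slc38a3, Atp12a, Insrr, Atp6v1g3 and Atp6v1c2, were named after their values were seen. So were the red blood cell genes and Scnn1b. Other settings were 2 pseudocounts, quantile normalization, median centring, 2 filters, 2 forms of eBayes, array weights, a replicate block, fits of only the groups compared, single arrays left out, and normal-diet arrays 1 and 2 at 8 weeks omitted.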

Additional observations from a re-analysis of the deposited data

Results flagged for a closer look

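Among the 9 member probe sets, Slc4a7 and Slc9a3, on 4 groups each, 2 groups held an array that stood apart by Dixon's test at the 95% level, which flags about 1 group in 20 by chance. For Car2 1386922_at, HSF array 2 at 2 weeks had a signal of 817.7, where the group median was 1064.6. For Slc4a1 1387656_at, normal-diet array 6 at 2 weeks had a signal of 321.0, where the group median was 417.9, and without any 1 array the diet difference at 2 weeks was 0.38 to 0.49 (limma adjusted p = 0.0021 to 0.0185).

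For Slc9a3 the diet effects at the 2 times differed by limma: the difference at 8 weeks minus that at 2 weeks was -0.68 ± 0.12 (limma adjusted p = 0.00871).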

How the results depend on the processing

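At 2 weeks the 3 member calls held under all 12 other settings and with each of the 24 arrays left out in turn, and the same held for Slc4a4 1372479_at at 8 weeks. Of 2222 single values compared over 62 results, 2045 kept their direction and side of the threshold, 114 lost the call, 2 gained it and 61 turned their sign, of which 0 were called either way. For the turned values and moved counts below the cause was not tested, beyond fewer arrays where arrays were omitted.

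The change of the diet effect for Slc4a4 1372479_at was -0.023 after quantile normalization, -0.0034 after median centring, -0.000602 with array weights and -0.0033 with normal-diet arrays 1 and 2 at 8 weeks omitted. Its time effect on the normal diet was 0.053 after quantile normalization, 0.0088 with array weights and 0.0081 with the 2 arrays omitted, and its time effect on the HSF diet was -0.037 after median centring. Car2 1386922_at had time effects on the HSF diet of -0.040 after median centring and -0.065 with array weights, and on the normal diet of -0.0056 after median centring. Array weights gave -0.020 for Rhcg at 2 weeks and -0.0068 for Car4 at 8 weeks, and omitting the 2 arrays gave -0.059 for Car4 and 0.040 for Slc4a1 1369634_at at 8 weeks.

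All probe sets called for diet at 8 weeks numbered 542 with the 2 arrays omitted, with 1 member. For the change of the diet effect array weights gave 80. For time on the HSF diet array weights gave 634, and only the groups compared gave 223, with 0 members. For time on the normal diet median centring gave 2, eBayes without trend 0, only the groups compared 0 and the 2 arrays omitted 9.

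With single arrays left out, diet at 8 weeks gave 543 to 1120 calls (543 without HSF array 1, 578 without array 5) and 1 to 2 members. The change of the diet effect gave 22 to 50 (22 without HSF array 3 at 8 weeks) and 0 to 1 members. Time on the HSF diet gave 220 to 507 (220 without array 5 at 8 weeks, 233 without array 3 at 2 weeks) and 0 to 3 members, and time on the normal diet 0 to 10. Diet differences were -0.025 to 0.094 for Rhcg at 2 weeks and -0.061 to 0.068 for Car4 at 8 weeks. The change of the diet effect was -0.044 to 0.017 for Car2 1367733_at, -0.093 to 0.037 for Car2 1386922_at, -0.021 to 0.098 for Rhcg and -0.032 to 0.044 for Slc4a4 1372479_at. Time effects on the HSF diet were -0.065 to 0.047 for Car2 1386922_at and -0.025 to 0.044 for Slc4a4 1372479_at. On the normal diet they were -0.036 to 0.054 for Car2 1386922_at, -0.135 to 0.091 for Slc4a1 1369634_at and -0.025 to 0.037 for Slc4a4 1372479_at.

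HSF and normal-diet arrays of equal replicate number at the same time showed little shared deviation (correlations -0.066 to 0.103). These correlations cannot show whether the animals were paired. With the replicate number as a block, 892 probe sets were called for diet at 2 weeks and 922 at 8 weeks, with 3 and 2 members, and Atp6v1b2 (limma adjusted p = 0.0584) and Atp6v1c1 (limma adjusted p = 0.0631) were no longer called.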
